A study of Homo sapiens with 6 samples.

Results

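Antigen presentation is described here across 31 genes of 58735 in the count table, taken by their gene symbols: the chains of the major histocompatibility complex (MHC) class I and class II molecules, the proteins that supply and load their peptides, and the factors that switch them on. The cells were T47D, an established luminal breast cancer line, with 3 control libraries (titled CK) and 3 libraries from an experimental treatment (titled CQ). The series title names PM2.5, the fine fraction of airborne particles, and the extraction protocol, which reads alike for every sample, sets the time of exposure at 48 h. That the CQ group received PM2.5 is inferred from these texts, "exposed" is used in that sense, and the sources used here give no dose, particle source or vehicle. All libraries come from 1 tumour-derived line, and no immune cells are named in the labels.

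Class I molecules display peptides from the cytosol on nearly all nucleated cells. The heavy chain pairs with beta-2-microglobulin, the TAP transporter pumps peptides into the endoplasmic reticulum, tapasin (TAPBP) holds the empty molecule for loading, and the aminopeptidases ERAP1 and ERAP2 trim the peptides. Class II molecules display peptides from endosomes and belong mainly to professional antigen-presenting cells, although epithelial cells can make them after interferon-gamma. NLRC5 switches on class I genes and CIITA class II genes, and both work through the RFX complex (RFX5, RFXAP, RFXANK) on a shared upstream element that also holds sites for CREB-family and NF-Y factors.

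Sequence upstream of 6 members is shown because motifs for some of the factors named above were sought there. Binding was not measured. The 6 include members that rose (HLA-C, B2M, HLA-DQB1, HLA-DOB), fell (ERAP2) or did not pass the test (HLA-DRB1). The windows are the 250 bases before a RefSeq start (GRCh38.p14), cut to the part outside every GENCODE 29 exon, and read 5′ to 3′ on the gene's strand. Capitals mark matches on either strand to 4 motifs. These are CCAAT, the NF-Y box, and TGACG, the core of a CREB-type site. The others are TTCNNNGAA, the gamma-activated sequence (GAS), and a pair of GAAA runs with 2 bases between them, which is the core of an interferon-stimulated response element (ISRE). The windows are HLA-C at chr6:31272131-31272342 (minus), B2M at chr15:44711317-44711486 (plus), HLA-DRB1 at chr6:32589849-32590098 (minus), HLA-DQB1 at chr6:32666695-32666907 (minus), HLA-DOB at chr6:32817049-32817252 (minus) and ERAP2 at chr5:96875734-96875938 (plus).
HLA-C: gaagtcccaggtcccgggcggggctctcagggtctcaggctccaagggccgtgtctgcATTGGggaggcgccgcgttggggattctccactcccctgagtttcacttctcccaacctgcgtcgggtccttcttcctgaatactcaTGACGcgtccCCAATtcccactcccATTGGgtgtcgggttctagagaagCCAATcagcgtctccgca
B2M: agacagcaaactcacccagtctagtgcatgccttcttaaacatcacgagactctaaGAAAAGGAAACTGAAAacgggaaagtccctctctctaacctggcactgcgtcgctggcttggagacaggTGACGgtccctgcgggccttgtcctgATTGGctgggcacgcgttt
HLA-DRB1: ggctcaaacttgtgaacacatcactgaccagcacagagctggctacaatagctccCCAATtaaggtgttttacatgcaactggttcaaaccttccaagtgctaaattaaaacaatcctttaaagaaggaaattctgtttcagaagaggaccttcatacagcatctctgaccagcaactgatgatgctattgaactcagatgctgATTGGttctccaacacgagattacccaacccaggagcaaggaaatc
HLA-DQB1: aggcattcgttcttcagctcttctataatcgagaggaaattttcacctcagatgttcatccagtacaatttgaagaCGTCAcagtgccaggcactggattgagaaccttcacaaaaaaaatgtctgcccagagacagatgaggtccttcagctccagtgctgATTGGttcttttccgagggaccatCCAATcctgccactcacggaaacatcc
HLA-DOB: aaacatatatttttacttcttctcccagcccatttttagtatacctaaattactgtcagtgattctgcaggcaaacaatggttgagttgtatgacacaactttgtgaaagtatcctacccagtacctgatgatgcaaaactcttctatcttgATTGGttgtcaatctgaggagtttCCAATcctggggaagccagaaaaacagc
ERAP2: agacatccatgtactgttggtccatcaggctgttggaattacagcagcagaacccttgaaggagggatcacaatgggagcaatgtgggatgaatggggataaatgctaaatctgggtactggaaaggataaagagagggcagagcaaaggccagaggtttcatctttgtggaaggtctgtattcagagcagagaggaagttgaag

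Of the 31 members, 27 had a RefSeq window, and HLA-E, NLRC5, HLA-DRA and CIITA had none. A CCAAT box stood in 17 of the 27 full windows (63.0%), against 32.0% of all 35116 windows of the same length, and in 9 of 10 windows of class II chains and chaperones. The ISRE-like pattern stood in 5 of 27 (18.5%), against 3.02% of all windows: HLA-F, B2M, TAP1, TAP2 and TAPBP. Only exact matches were counted, so the other windows, such as those of HLA-B and HLA-C, may hold an ISRE that differs from this pattern. TGACG stood in 9 of 27 (33.3% against 21.2%), and a GAS site in 1, that of HLA-DQA1 (3.70% against 6.57%). GCGTG, the core bound by the aryl hydrocarbon receptor, stood in 8 of 27 windows (29.6%), against 32.2% of all windows, and TGACNNNGC, the core of the antioxidant response element, in 5 (18.5% against 10.9%). TGACG can overlap TGACNNNGC. The windows of ERAP2, LNPEP, MR1, HLA-G, RFXANK and TAPBPL held none of the 4 motifs marked in capitals. Each member's window is at the RefSeq start nearest its 5′ end in the count table, and any other start was not searched. A motif absent here may thus stand at another start. The start used lay 1726 bases from that end for HLA-DQB1 and 3464 for HLA-DOB. For HLA-DQA1 and HLA-DMA it lay 9227 and 15997 bases away.

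The libraries held 30970218 to 36878525 counts. All 9 luminal epithelial markers were detected. Their sum was 19210 to 21080 CPM in controls and 8122 to 10140 CPM in exposed libraries. CPM are read counts scaled to a common library size. Most of the sum was KRT8, KRT19 and KRT18, at 8154, 7504 and 1846 CPM in controls. Of the 9 markers, 6 fell and none rose. EPCAM, CDH1 and GATA3 did not pass the test (log2 fold change 0.02, 0.08 and 0.04). The part of these falls in the results below was not tested. Markers of other cells were low: the 18 leukocyte and professional antigen-presenting cell markers summed to 14.3 to 17.1 CPM in controls and 10.1 to 12.7 CPM in exposed libraries. CD3D and AIF1 were at 0 in every library, and PTPRC, which encodes the pan-leukocyte antigen CD45, was at 0.0911 ± 0.0604 CPM in controls and 0.173 ± 0.105 CPM in exposed libraries (mean ± SD, n = 3 per group). The 9 stromal and endothelial markers summed to 61.9 to 70.2 and 72.1 to 75.7 CPM, most of it COL1A1. In bulk RNA, fewer cells of a type and less RNA per cell cannot be told apart.

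The comparison of exposed with control cells asked how RNA levels of these genes differed. NLRC5 and HLA-DOB rose more than 2-fold, the aminopeptidase genes ERAP2 and LNPEP were 1.90-fold and 2.16-fold lower, and the class I chains HLA-C, HLA-E, B2M and MR1 rose by smaller amounts. The class II regulators CIITA, RFX5 and RFXAP fell, while no class II chain did. TAP1 and TAP2 did not pass the test.

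Each gene was tested by the quasi-likelihood method of edgeR, and p-values were adjusted over all genes by the Benjamini-Hochberg procedure. By this test 43.9% of 17337 tested genes passed at an adjusted p under 0.05, 21.8% higher and 22.1% lower. Of the 31 members, 29 passed the filter on low counts and were tested, and 15 of these changed (51.7%), 9 higher and 6 lower. This share is near that of all genes. The median log2 fold change of the tested members was 0.15, against -0.02 over all genes tested, and their median absolute change was 0.32, against 0.33. Groups did not overlap for 16 tested members, against 51.9% of all genes. Most member changes were small: 10 of the 15 were under 1.5-fold. When the test asked for a change beyond 1.5-fold, NLRC5, HLA-DOB, ERAP2 and LNPEP remained.

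**Figure D1:**
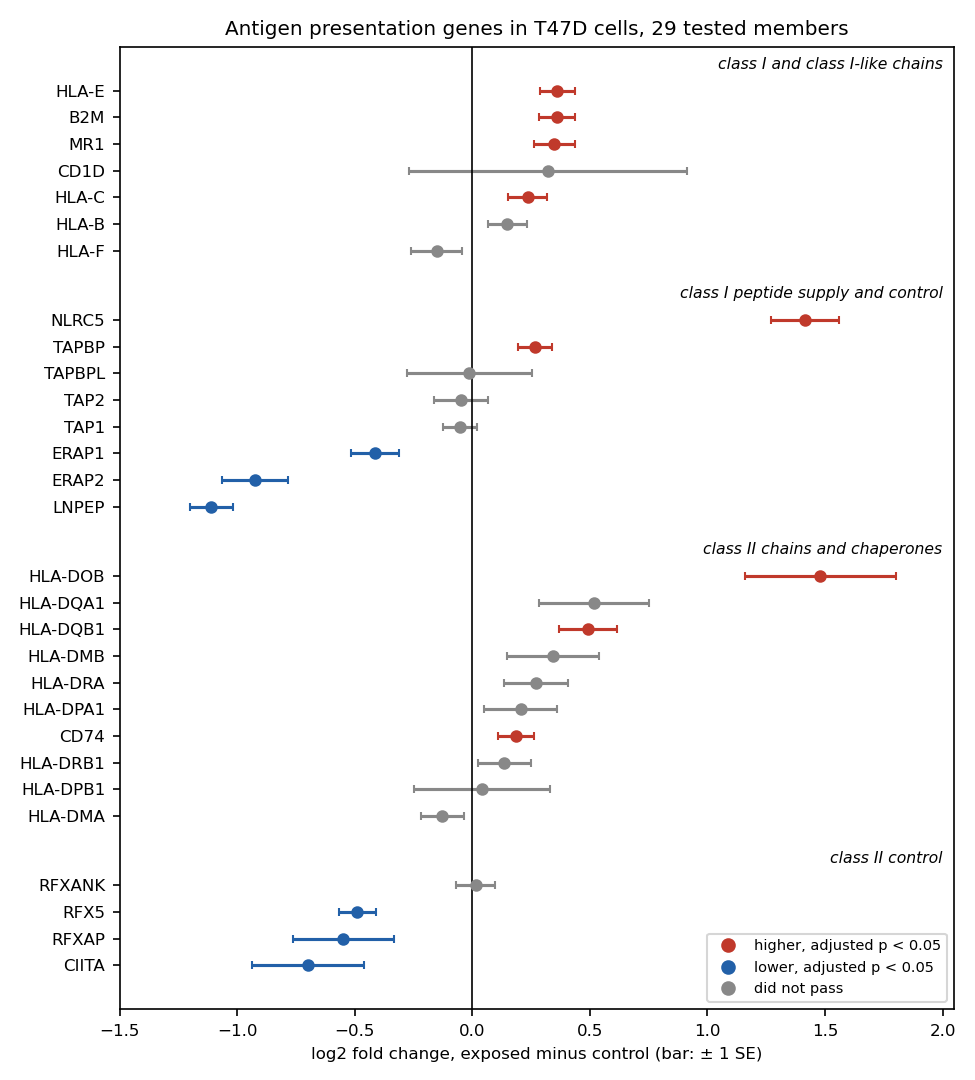
Log2 fold change, exposed minus control, of the 29 tested members (x axis, bar ± 1 SE), grouped by role on the y axis, with red and blue for genes past the threshold. NLRC5 and HLA-DOB stand farthest to the right at 1.41 and 1.48, and LNPEP and ERAP2 farthest to the left at -1.11 and -0.92.

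Of 8 class I and class I-like chains, 7 were tested, 4 rose, none fell and 3 did not pass. Of those tested 57.1% passed, against 43.9% of all genes. HLA-E, a heavy chain of low polymorphism read by natural killer cells, stood at 274, 293 and 260.2 CPM in control replicates 1 to 3 and at 367, 343 and 353 CPM in exposed replicates 1 to 3. The exposed libraries were all above the controls, and the log2 fold change was 0.36 ± 0.07 (SE; adjusted p = 1.9e-04), or 1.28-fold. B2M, the light chain common to all of these molecules (ENSG00000166710, chromosome 15, 44711487 to 44718877, plus strand), stood at 427, 452 and 424 CPM in controls and 590.4, 514 and 567 CPM in exposed libraries. Again no library crossed over, and the log2 fold change was 0.36 ± 0.08 (adjusted p = 3.1e-04).

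MR1, which presents microbial vitamin metabolites to MAIT cells, stood at 40.9, 37.6 and 34.4 CPM in controls and 47.3, 47.9 and 48.6 CPM in exposed libraries. Its exposed values lay close together and above every control (log2 fold change 0.35 ± 0.09, adjusted p = 0.0015). HLA-C, a classical heavy chain and ligand of killer-cell receptors, stood at 261, 295 and 235 CPM in controls and 329.6, 284 and 317 CPM in exposed libraries. The groups overlapped, since exposed replicate 2 lay under control replicate 2, and the log2 fold change was 0.23 ± 0.08 (adjusted p = 0.020). The gene no longer passed when control replicate 3 was removed (log2 fold change 0.16, adjusted p = 0.19). The same held on removal of exposed replicate 1 (0.19, adjusted p = 0.080), and also on removal of exposed replicate 3 (0.24, adjusted p = 0.054).

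HLA-B, the other classical heavy chain among the members (ENSG00000234745, chromosome 6, 31269491 to 31357188, minus strand), stood at 396, 424 and 353 CPM in controls and 481, 399.6 and 419 CPM in exposed libraries. The groups overlapped, the log2 fold change was 0.15 ± 0.08 (adjusted p = 0.15), and its 95% interval ran from -0.02 to 0.32. Without control replicate 2 HLA-B passed (0.21, adjusted p = 0.025), whereas it was at 0.079 without control replicate 3 and at 0.073 without exposed replicate 1 (adjusted p = 0.56 for both). HLA-F, a non-classical heavy chain, was at 22.5 ± 2.65 and 20.3 ± 2.13 CPM (n = 3 per group; log2 fold change -0.15, adjusted p = 0.27). CD1D, which presents lipids, had 15, 14 and 2 counts in controls and 8, 15 and 13 in exposed libraries, too few to place it (95% interval of the log2 fold change -0.88 to 1.52). HLA-G, which is known from the placenta, had no count in any library, and a count of 0 allows up to 0.0804 to 0.0969 CPM per library (3 counts each, counting error only).

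The heavy chain genes share sequence. Some of the distinct 50-base words in their GENCODE 29 transcripts occur also in transcripts of other genes. The shares were 5.70% for HLA-C, 4.87% for HLA-E, 17.8% for HLA-B, 21.6% for HLA-F and 22.0% for HLA-G. Words were matched on either strand. Most of the shared words of HLA-B, 493 words, lie in the pseudogene AL671883.2. That pseudogene overlaps 542 exon bases of HLA-B itself on the opposite strand and had 27 counts in all libraries. HLA-B and HLA-C share 81 words. The annotated exons of HLA-B and HLA-C overlap by 35 bases. The sources used here do not state how the authors assigned such reads, and HLA genes vary between people, so counts against a reference also depend on the alleles that T47D carries. B2M shares no such word with another gene.

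**Figure D2:**
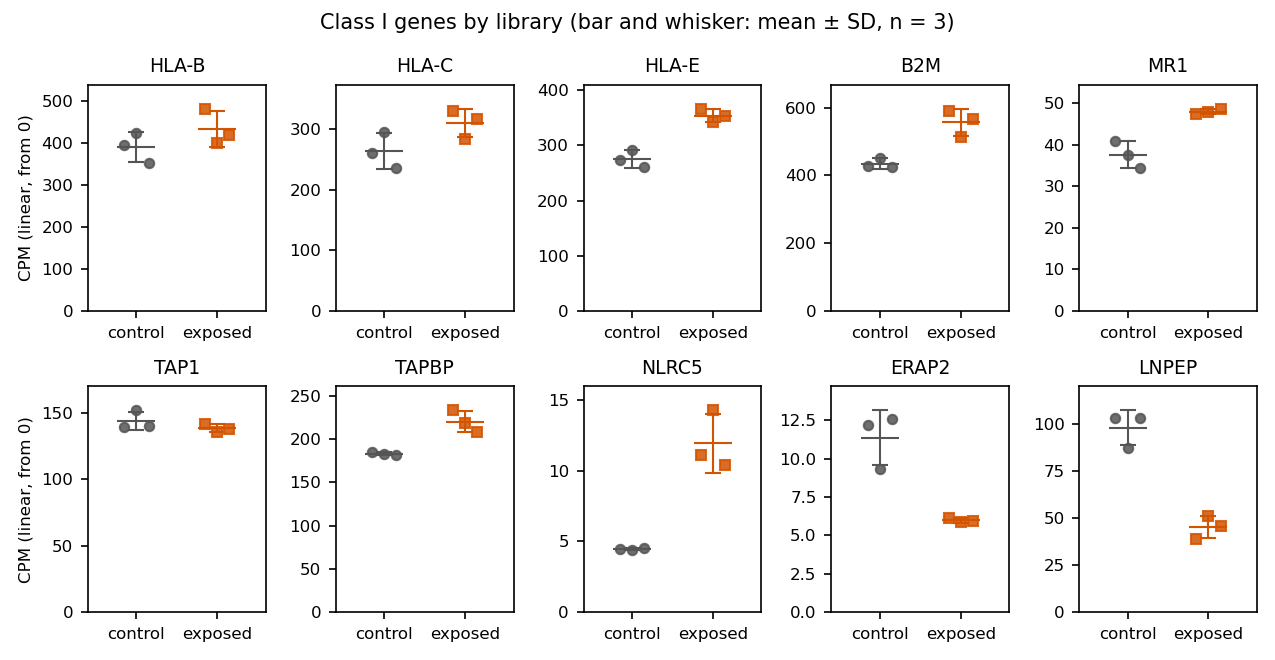
CPM (y axes, linear from 0) of 10 class I genes in each library, circles for control and squares for exposed, with mean ± SD (n = 3). NLRC5 is at 4.41 to 4.53 CPM in controls and 10.4 to 14.2 CPM in exposed libraries, LNPEP is lower in every exposed library, and the groups overlap for HLA-B, HLA-C and TAP1.

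Among the 8 genes of class I peptide supply and control, 2 rose, 3 fell and 3 did not pass. The share that passed was 62.5%, against 43.9% of all genes. NLRC5, the class I transactivator (ENSG00000140853, chromosome 16, 56989485 to 57083531, plus strand), stood at 4.45, 4.41 and 4.53 CPM in controls and at 11.1, 14.2 and 10.4 CPM in exposed libraries. The lowest exposed library was more than 2-fold above the highest control, and the log2 fold change was 1.41 ± 0.15 (adjusted p = 1.7e-09), or 2.67-fold. No annotated transcript of NLRC5 shares a 50-base word with another gene.

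TAPBP, or tapasin, stood at 185, 182 and 182 CPM in controls and at 233, 219 and 209 CPM in exposed libraries. Controls were nearly level, every exposed library lay above them, and the log2 fold change was 0.27 ± 0.07 (adjusted p = 0.0035). TAP1 and TAP2, the partner chains of the peptide transporter, did not pass: TAP1 was at 144 ± 6.98 and 138 ± 3.02 CPM and TAP2 at 14.3 ± 0.800 and 13.8 ± 1.21 CPM (n = 3 per group). The 95% intervals of their log2 fold changes, -0.20 to 0.09 and -0.28 to 0.18, leave room only for changes well under that of NLRC5. TAPBPL, a tapasin-related peptide editor, was at 1.99 ± 0.178 and 1.97 ± 0.730 CPM, with a wide interval of -0.56 to 0.53.

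ERAP1, ERAP2 and LNPEP, paralogous aminopeptidases that lie next to each other on chromosome 5, all fell. LNPEP, which trims peptides in endosomes for cross-presentation and cleaves oxytocin (ENSG00000113441, 96935394 to 97037515, plus strand), stood at 103, 87.3 and 103 CPM in controls and at 39.1, 51.0 and 46.1 CPM in exposed libraries. ERAP2 (ENSG00000164308, 96875939 to 96919716, plus strand) stood at 12.2, 9.33 and 12.6 CPM in controls and 6.15, 5.85 and 5.96 CPM in exposed libraries. For both, the highest exposed library lay far under the lowest control, with log2 fold changes of -1.11 ± 0.09 (adjusted p = 1.2e-11) and -0.92 ± 0.14 (adjusted p = 2.2e-06).

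ERAP1 (ENSG00000164307, 96760810 to 96808100, minus strand) stood at 24.9, 21.1 and 24.6 CPM in controls and 16.5, 18.6 and 17.9 CPM in exposed libraries, a smaller fall of 0.41 ± 0.10 on the log2 scale (adjusted p = 0.0015). The ratio of ERAP1 to ERAP2 per transcript length was 1.83 to 2.11 in controls and 2.50 to 2.98 in exposed libraries, so the ranges did not overlap. Together with the 3 members, 10 genes within 1 Mb of this cluster were tested. Of the 7 that are not members, 1 fell, AC009126.1, which runs antisense across ERAP2 to the start of LNPEP (log2 fold change -1.36 ± 0.25), 2 rose and 4 did not pass. The nearest tested protein-coding genes on either side, CAST (0.02 ± 0.08) and RIOK2 (-0.05 ± 0.12), did not pass (adjusted p = 0.89 and 0.77). AC009126.1 overlaps 2.73% of the exon bases of LNPEP on the opposite strand and had 435 counts in all libraries against 15228 for LNPEP. CAST overlaps 3.76% of those of ERAP1, and with the strand setting not given such reads cannot be told apart.

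**Figure D3:**
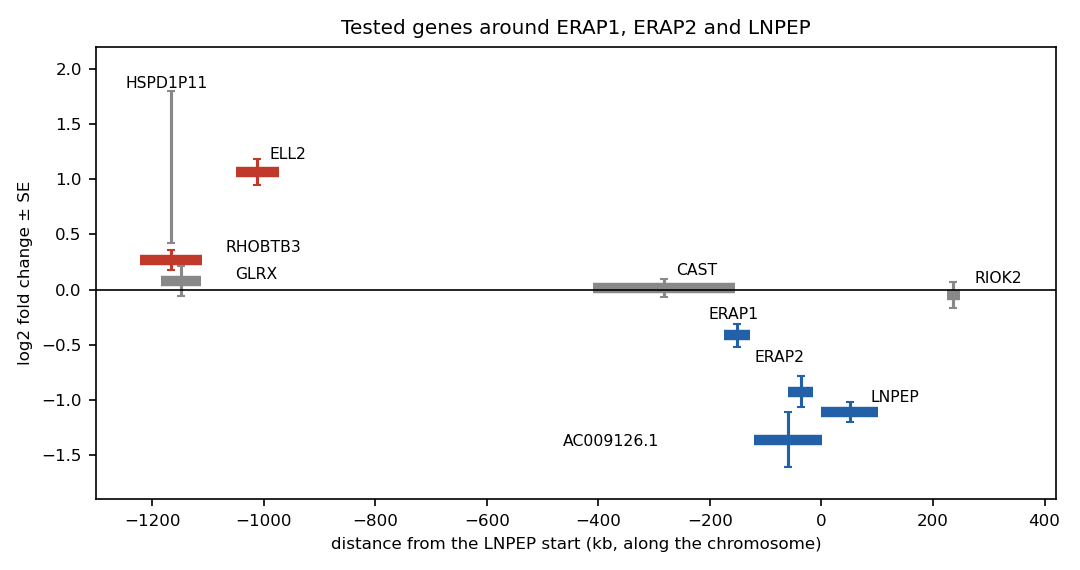
Log2 fold change ± SE (y axis) of the 10 tested genes around ERAP1, ERAP2 and LNPEP, drawn as bars over their extent in kb from the LNPEP start (x axis), with red for higher, blue for lower and grey for genes that did not pass. The 4 genes from ERAP1 to LNPEP lie between -0.41 and -1.36, and CAST and RIOK2 on either side lie at 0.02 and -0.05.

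Of 11 class II chains and chaperones, 10 were tested, 3 rose, none fell and 7 did not pass. Of those tested 30% passed, against 43.9% of all genes. HLA-DOB, a chain of HLA-DO, which restrains the peptide editor HLA-DM (ENSG00000241106, chromosome 6, 32812763 to 32820466, minus strand), had 20, 24 and 27 counts in controls and 48, 73 and 63 in exposed libraries. That is 0.536, 0.691 and 0.741 CPM against 1.41, 2.36 and 1.75 CPM, a log2 fold change of 1.48 ± 0.32 (adjusted p = 3.4e-04), or 2.79-fold. The groups were well apart, but the level is among the lowest of the members. A read-through gene, AL669918.1, covers 29.7% of its exon bases and 32.3% of those of TAP2 and was listed at 0 in every library.

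HLA-DQB1, the beta chain of HLA-DQ, stood at 16.4, 17.0 and 12.2 CPM in controls and 24.6, 18.7 and 20.7 CPM in exposed libraries. Every exposed library lay above the controls, exposed replicate 2 by a small margin, and the log2 fold change was 0.49 ± 0.12 (adjusted p = 0.0015). CD74, the invariant chain that escorts class II molecules, stood at 112, 126 and 115 CPM in controls and 143, 131 and 126.5 CPM in exposed libraries. Control replicate 2 and exposed replicate 3 were almost equal, and the log2 fold change of 0.19 ± 0.08 barely passed (adjusted p = 0.049). CD74 no longer passed on removal of control replicate 1 (log2 fold change 0.15, adjusted p = 0.17) or of control replicate 3 (0.17, adjusted p = 0.16). It did not pass either when exposed replicate 1 (0.14, adjusted p = 0.21) was dropped, or exposed replicate 2 (0.20, adjusted p = 0.067), and failed under 5 other settings.

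HLA-DRA, the alpha chain of HLA-DR, stood at 7.61, 10.4 and 12.2 CPM in controls and 12.1, 12.8 and 11.5 CPM in exposed libraries. Control replicate 1 was the lowest and control replicate 3 reached the exposed range (log2 fold change 0.27 ± 0.14, adjusted p = 0.11). HLA-DRA moved both ways with single libraries: it passed without control replicate 3 (0.43, adjusted p = 0.030) and was at 0.11 (adjusted p = 0.59) without control replicate 1. HLA-DQA1, the partner of HLA-DQB1, was at 1.98 ± 0.559 and 2.84 ± 0.178 CPM (n = 3 per group; log2 fold change 0.52, adjusted p = 0.073). Its groups did not overlap. It passed without control replicate 1 (0.72, adjusted p = 0.029) and was at 0.32 (adjusted p = 0.31) without control replicate 2. The remaining chains, HLA-DRB1, HLA-DPA1, HLA-DPB1, HLA-DMA and HLA-DMB, had log2 fold changes from -0.13 to 0.34 and did not pass. HLA-DMA and HLA-DMB, which form the peptide editor, were at -0.13 and 0.34. The ratio of HLA-DMA to HLA-DMB per exon length was 23.4 to 26.7 in controls and 16.3 to 19.7 in exposed libraries.

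HLA-DRB1 shares 9.92% of its 50-base words with other genes, chiefly HLA-DRB5, whose counts were not used here. IFI30, a lysosomal thiol reductase that opens antigens, had 1, 2 and 0 counts in controls and 2, 6 and 10 in exposed libraries and did not pass the filter.

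All 3 class II regulators that fell did so by less than 2-fold, and 1 of the 4, RFXANK, did not pass. The share that passed was 75%, against 43.9% of all genes. Without exposed replicate 2 only RFX5 passed. RFX5, the DNA-binding subunit of the RFX complex (ENSG00000143390, chromosome 1, 151340640 to 151347357, minus strand), stood at 88.8, 88.5 and 90.8 CPM in controls and 67.4, 65.0 and 58.5 CPM in exposed libraries. Controls differed little, all exposed libraries were lower, and the log2 fold change was -0.49 ± 0.08 (adjusted p = 5.5e-06). RFXANK, the ankyrin-repeat subunit, was at 48.0 ± 2.18 and 48.4 ± 2.12 CPM (n = 3 per group; log2 fold change 0.01, 95% interval -0.16 to 0.18).

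RFXAP, the third subunit, stood at 2.71, 3.43 and 3.87 CPM in controls and 1.88, 2.39 and 2.55 CPM in exposed libraries. The highest exposed library lay just under the lowest control, and the log2 fold change was -0.55 ± 0.22 (adjusted p = 0.038). RFXAP no longer passed on removal of control replicate 2 (-0.53, adjusted p = 0.076) or of control replicate 3 (-0.43, adjusted p = 0.19). It did not pass either when exposed replicate 1 (-0.42, adjusted p = 0.16) was dropped, or exposed replicate 2 (-0.58, adjusted p = 0.055), and failed under 4 other settings.

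CIITA, the class II transactivator (ENSG00000179583, chromosome 16, 10866222 to 10943021, plus strand), had 115, 124 and 118 counts in controls and 99, 40 and 67 in exposed libraries, or 3.08, 3.57 and 3.24 against 2.92, 1.29 and 1.86 CPM. The exposed libraries were spread more widely than the controls, and replicate 1 lay close to them. The log2 fold change of -0.70 ± 0.24 (adjusted p = 0.018) became -0.46 (adjusted p = 0.13) without exposed replicate 2 and -0.62 (adjusted p = 0.064) without exposed replicate 3. Without exposed replicate 1, the library nearest the controls, CIITA was at -1.05 (adjusted p = 7.8e-04). DEXI, on the opposite strand, overlaps 11.6% of the exon bases of CIITA and held 734 counts in all libraries against 563 for CIITA. DEXI was at 3.95 and 3.03 CPM (log2 fold change -0.39, adjusted p = 0.10), and its part in the CIITA value was not tested. Per exon length, the ratio of CIITA to NLRC5 was 0.413 to 0.484 in controls and 0.0541 to 0.156 in exposed libraries.

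**Figure D4:**
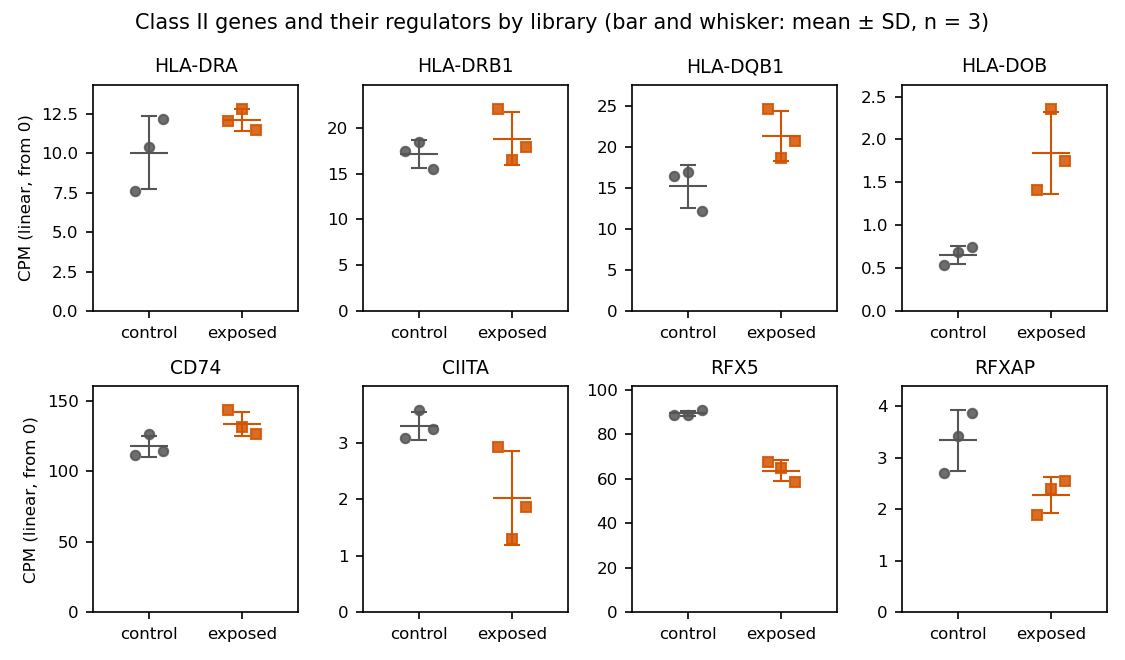
CPM (y axes, linear from 0) of 8 class II genes and regulators in each library, circles for control and squares for exposed, with mean ± SD (n = 3). HLA-DOB and HLA-DQB1 are higher and RFX5, RFXAP and CIITA lower in every exposed library than in any control, and HLA-DRA and HLA-DRB1 overlap.

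Levels of different genes were compared per kilobase of exon (RPKM). The length is that of the merged exons of all annotated transcripts, 6079 bases for B2M and 20757 for CIITA. It can exceed the length of the transcripts made, so the order and the ratios between genes depend on it. By CPM, B2M stood above HLA-B in controls, at 434 and 391. In controls HLA-B led at 128 ± 11.8, then HLA-C at 105 ± 11.9, HLA-E at 92.6 ± 5.49 and B2M at 71.4 ± 2.55 RPKM (n = 3). HLA-B and HLA-C overlapped in their ranges over control libraries, as did HLA-C and HLA-E, whereas HLA-E and B2M did not. CD74 (36.9 ± 2.38) and TAPBP (36.2 ± 0.323) overlapped, and TAP1 followed at 29.9 ± 1.45 RPKM. TAP1 was 12.2 to 14.6 times TAP2 in controls and 12.3 to 13.9 times in exposed libraries. The read-through gene AL669918.1 covers 32.3% of the exon bases of TAP2, so this ratio also depends on how reads there were counted. Of the class II chains, HLA-DRB1 was at 13.9 ± 1.21 and HLA-DRA at 7.85 ± 1.79 RPKM, while HLA-DPB1 was at 0.610 and HLA-DQA1 at 0.286 RPKM.

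The transactivators sat near the bottom of the order in controls, NLRC5 at 0.360 ± 0.00499 and CIITA at 0.159 ± 0.0120 RPKM. In exposed libraries NLRC5 was at 0.962 ± 0.166 and CIITA at 0.0974 ± 0.0397 RPKM. NLRC5 thereby went from place 25 to place 21 of 31 by mean, LNPEP from 13 to 16 and ERAP2 from 19 to 23, while the 4 genes at the top kept their places. Summed, HLA-B, HLA-C and HLA-E stood at 326 ± 29.03 RPKM in controls and 385 ± 26.6 in exposed libraries, and the 6 classical class II chains at 26.8 ± 1.79 and 31.3 ± 2.88 RPKM (n = 3 per group).

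**Figure D5:**
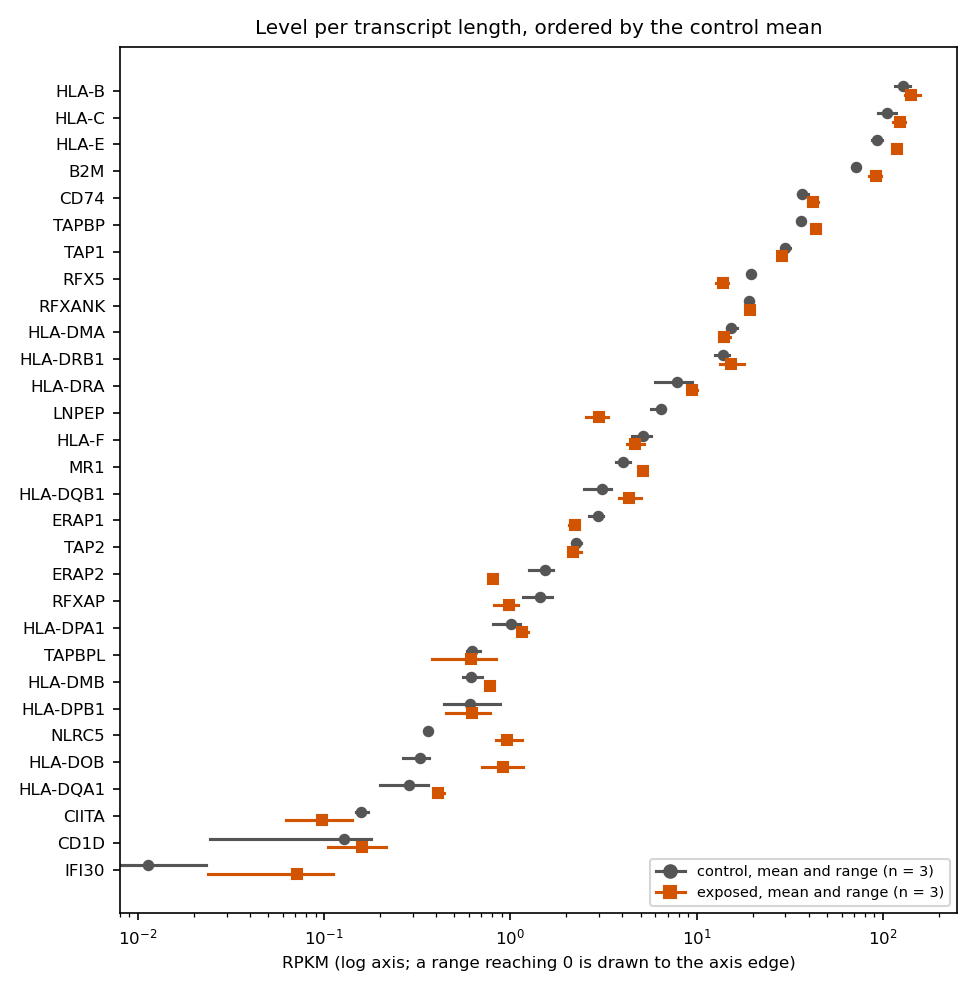
RPKM (x axis, log scale) of 30 members ordered by the control mean, circles for control and squares for exposed, with lines over the range of 3 libraries. HLA-G, at 0 counts, is left out. HLA-B, HLA-C, HLA-E and B2M lead in both groups, and NLRC5, HLA-DOB, LNPEP and ERAP2 show wide gaps between the groups.

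Genes around the pathway were counted by role. Of 17 interferon receptor, JAK-STAT and IRF genes, 16 were tested, 4 rose, 3 fell and the median log2 fold change was 0.14. JAK1, the kinase shared by interferon receptors, was at -0.71 ± 0.08, IRF2, which can antagonise IRF1, at 0.65 ± 0.11, and IFNGR1, the ligand-binding chain of the interferon-gamma receptor, at 0.47 ± 0.11 (log2 fold change ± SE). IRF1, a transcription factor induced by interferon-gamma that acts on MHC genes, was at 0.29 and did not pass (adjusted p = 0.10). The log2 fold change of IRF1 passed without control replicate 2 (0.43, adjusted p = 0.021), as it did on removal of exposed replicate 2 (0.42, adjusted p = 0.022). Of 12 partner factors and chromatin enzymes at MHC promoters, 1 rose, 2 fell and the median was 0.05: HDAC1, a histone deacetylase, was at -0.52, NFYB, a subunit of NF-Y, at -0.52, and the acetyltransferase CREBBP at 0.29.

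Peptide loading chaperones and glycan enzymes rose in 6 of 9 cases and fell in 1, with a median of 0.26. CALR, the calreticulin that holds class I molecules during loading, went from 1072 ± 72.4 to 1686 ± 120 CPM (n = 3 per group; log2 fold change 0.65 ± 0.08), while UGGT1, the glucosyltransferase that returns poorly folded class I molecules to it, was at -0.46 ± 0.09. HSPA5, a general chaperone of this compartment, had the smallest adjusted p of the list, at 1.33. CANX and PDIA3, the other chaperones of the loading pathway, were at 0.16 and 0.15 and did not pass (adjusted p = 0.12 and 0.099). The log2 fold change of PDIA3 passed under DESeq2 (0.16, adjusted p = 0.049) and without control replicate 1 (0.22, adjusted p = 0.044), and the log2 fold change of CANX passed without exposed replicate 1 (0.22, adjusted p = 0.048).

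Among 12 genes of class II processing and trafficking, 3 rose, 1 fell and the median was 0.10. The lysosomal proteases CTSL (1.10 ± 0.09), CTSB (0.67 ± 0.07) and LGMN (0.60 ± 0.08) rose, and CTSS, the main invariant chain protease of professional antigen-presenting cells, was at 0.930 ± 0.216 and 0.979 ± 0.395 CPM and did not pass (adjusted p = 0.89). Ubiquitin ligase and ubiquitin-conjugating enzyme genes for MHC turnover or ER quality control rose in 5 of 9 tested cases and none fell. The median log2 fold change was 0.28. RNF185 was at 0.66, MARCH9, which removes class I molecules from the surface, at 0.62, and SYVN1 at 0.33. Of 8 cytosolic peptidase genes none rose and 3 fell, with a median of -0.09: THOP1, which destroys class I peptides, at -0.49, NPEPPS at -0.44 and LAP3 at -0.30. All of these fall within a table in which 43.9% of genes passed.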

How the data were processed

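The authors deposited whole-number read counts per gene for 6 libraries, made against GRCh38 per the submitters' processing notes. Per the labels' protocols, RNA was extracted with TRIzol and libraries made with a NEBNext Ultra kit for an Illumina NovaSeq. The sources used here do not give the aligner, counting tool, annotation or strand setting. Coordinates and exon lengths of all 31 members matched GENCODE 29.

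Groups and replicate numbers came from sample titles. Replicates are described as biological, with no mention of separate cultures, so p-values measure the spread between these samples, which may be technical. Counts were tested with edgeR 4.0.16 in R 4.3.3 (filterByExpr minimum count 10 and minimum total 15, TMM, robust quasi-likelihood fit, Benjamini-Hochberg over 17337 genes, threshold 0.05). CPM uses TMM-scaled library sizes, and RPKM divides it by the table's gene length. SE is the size of the log2 fold change over the square root of F. In a check on simulated counts of 17020 genes, 100 were changed 1.5-fold and 69.0% of them were found. Of 50 changed 2-fold, 86.0% were found, and 0.0951% of 16820 unchanged genes passed. The changed genes were drawn only from those with more counts. Far fewer genes changed there than the 43.9% that passed in these data. The adjustment of p-values depends on that share, so these rates need not hold here.

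Alternatives were DESeq2-type size factors, no filter, a minimum count of 30, DESeq2 1.42.0, limma-voom (limma 3.58.1), the replicate block, a test against a 1.5-fold change and leaving out each library. The members, lists and motifs were chosen with earlier results of these data known. Every member is named, and from each pathway list up to 3 genes with the smallest adjusted p, with IRF1, CALR and CTSS; a further gene of that rule is not reported here. CANX, PDIA3, DEXI and the neighbours of ERAP1 and LNPEP were added after their values were seen. Immunoproteasome genes were not analysed here.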

Additional observations from a re-analysis of the deposited data

How the results depend on the processing

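Under the test against a 1.5-fold change, members higher fell to 2 and members lower to 2, and over all genes 715 were higher and 783 lower, against 3778 and 3832 as reported. This follows from the stricter question. Under the other settings the members numbered 7 to 10 higher and 4 to 6 lower, and leaving out 1 library gave the same ranges. Of 376 values for the 29 tested members, 341 stayed on the same side of the threshold, 32 no longer passed, 3 newly passed and none that was called changed sign. NLRC5, HLA-DOB, ERAP2 and LNPEP passed under all 13 alternatives. DESeq2-type size factors moved the median of all genes from -0.02 to -0.01 and left 9 members higher and 6 lower.

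With the replicate number as a block, 7 members were higher and 6 lower, and HLA-C (adjusted p = 0.056) and CD74 (adjusted p = 0.11) did not pass. Same-numbered control and exposed libraries had correlations of deviations of -0.074, -0.080 and 0.005. Of the 3 exposed libraries, 0 correlated best with its own number. Correlations this small, from 3 libraries per group, cannot decide whether same-numbered libraries were handled together. Genes with under 100 counts per library, such as HLA-DOB, CD1D and HLA-DPB1, are limited by depth.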

Other observations

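The 16 tested members between HLA-F and TAPBP on chromosome 6 (29722775 to 33314387) were counted beside the other genes of that stretch. Of the members, 5 rose, none fell and 11 did not pass (31.2% called, against 43.9% of all genes tested), with a median log2 fold change of 0.22. Of the 111 other tested genes there, 47 rose, 7 fell and 57 did not pass (48.6% called), with a median of 0.20, against -0.02 over all genes tested. No test of this stretch was made, and neighbouring genes are not independent.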
